A study of Arabidopsis thaliana with 6 samples.

Results

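This section describes the probe sets whose mean in control leaves passed a set floor and that were higher after aphid saliva in each of the 3 repeats. A probe set was taken when the mean log2 intensity of the 3 control arrays was at least 5 and saliva minus control was at least 0.4 on the log2 scale, a 1.32-fold difference, in repeat 1, in repeat 2 and in repeat 3. Of 15177 probe sets, 11562 passed the floor and 95 met the whole rule. Of these 95, 46 had 1 annotated locus, 2 had several and 47 had none in the annotation used here. The saliva minus control differences chose the members, so their size and direction are given as a description, without a test.

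Leaves of Arabidopsis thaliana accession Col-0, grown for 3 weeks, received, through a syringe without needle, an artificial diet made of sugar (sucrose) and amino acids and were taken 24 h later. For the saliva group the diet had been fed on by the green peach aphid, Myzus persicae, of a tobacco-adapted red lineage, with cups of 20 aphids, and for the control group it came from cups with 0 aphids. The labels also give 50 aphids offered for the saliva group, and 50 µL of diet and a feeding period of 24 h for both groups. The 3 control and 3 saliva samples, each a pool of 18 leaves from 6 plants, were read on 1 Affymetrix ATH1 array apiece, and plants of both groups shared pots within a repeat. Infiltration itself was common to both groups, and the control diet met no aphid, so saliva and any other change that feeding made in the diet cannot be told apart. The study asked which transcripts differ between these leaves.

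Aphids feed from the phloem through a thin stylet and release saliva into the tissue on the way. The plant can respond to salivary proteins with defence signalling, and feeding also draws on the sugar and amino acid supply of the leaf. Genes of cell wall remodelling, of defence, of carbon and nitrogen supply and of water stress are described in turn below. Family names for loci without a gene symbol are background knowledge, since the annotation tables pair probe sets with loci and symbols but hold no descriptions. No sequence is printed, as the tables used here hold none.

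The arrays were on a like scale, with medians between 139.2 and 146.8 intensity units. Leaf tissue was clear from photosynthesis genes: of 12 listed, 4 had a named probe set, with control means from 13.73 to 14.80 and saliva means from 13.63 to 14.74 on the log2 scale. Marker lists for phloem, xylem, epidermis, trichome and flower had 0 named probe sets, and of 4 guard cell markers FMA alone was measured, at 5.88 in control and 6.07 in saliva leaves. Whether the share of a cell type differed was therefore not tested. In pooled leaves, more cells of a type and more RNA per cell cannot be told apart.

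Mean differences of the 95 members lay between 0.43 and 1.78, with a median of 0.81, a 1.75-fold difference, and 26 of them had a mean of at least 1. The median of all probe sets past the floor was 0.0024. The rule took 0.822% of the probe sets past the floor. In the paired limma fit over all 15177 probe sets, 0 of the 95 had an adjusted p under 0.05, where 0% of all probe sets were called higher. The lowest adjusted p among the members was 0.338 in that limma fit, and 94 of 95 had an unadjusted p under 0.05, where 5.59% of all probe sets were called higher. The authors' deposited table gave 61 of the 95 a rate under 0.05 in its paired column and a fold over 1, against 1.41% of all probe sets, and 0 an unpaired rate under 0.05. These counts come from the contrast that chose the members and support nothing by themselves.

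**Figure D1:**
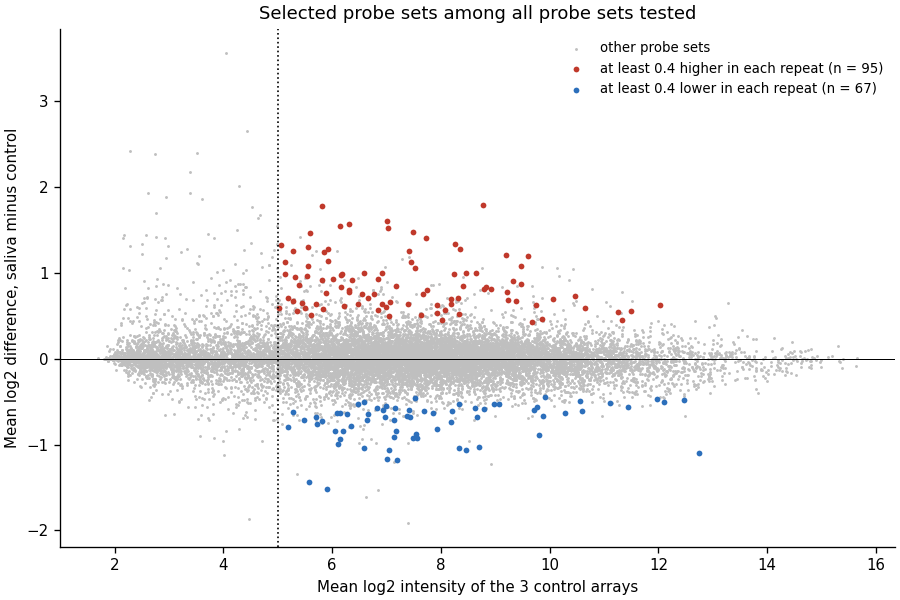
Each point is 1 probe set, placed by its mean log2 intensity on the 3 control arrays and by its mean log2 difference, saliva minus control. The 95 members lie in the upper band right of the dotted floor at 5 and the 67 probe sets lower by at least 0.4 in each repeat lie in the lower band; control means of the members reach 12.03.

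Cell wall and growth genes made up 8 of the 46 annotated members, with mean differences from 0.59 to 1.57. Roles were given to the annotated members only. The counts by role here and below thus have no share over all probe sets beside them, and nothing is read from their size. AT2G41800, of the DUF642 family of cell wall proteins, read 6.99, 5.48 and 6.50 on the control arrays of repeats 1, 2 and 3 and 8.10, 6.78 and 8.78 on the saliva arrays. Its mean difference was 1.57 ± 0.63 (SD, n = 3 repeats), and the groups overlapped, because saliva 2 lay below control 1. The pectate lyase-like gene AT3G27400, whose family cuts pectin chains, read 7.95, 6.55 and 7.74 against 8.75, 7.501 and 9.74, a difference of 1.25 ± 0.65. AT2G01610, of the family that inhibits invertases and pectin methylesterases, read 5.65, 4.48 and 5.72 against 6.20, 5.61 and 7.79. In these 3 genes repeat 2 was the low repeat of both groups, and saliva 3 was the highest array.

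EXO, the EXORDIUM gene that promotes cell expansion and responds to brassinosteroid, read 8.47, 8.14 and 8.48 in controls and 9.14, 9.93 and 9.84 after saliva. Its lowest saliva array was 0.66 above its highest control array, and the mean difference was 1.28 ± 0.56. Of 12 genes listed for brassinosteroid response 2 were measured. Beside EXO this was AT1G04680, not a member, with 0.55, -0.31 and -0.021 in repeats 1 to 3. ATPMEPCRB, a pectin methylesterase that removes methyl groups from pectin, had 0.98 ± 0.43 and, like EXO, kept the groups apart, by 0.14. EXO and ATPMEPCRB were the 2 wall genes without overlap, where 8.58% of all probe sets past the floor had all saliva arrays above all control arrays; the rule used these values, so nothing is read from such counts. The remaining 3 were AT1G03820, of the E6-like family, with 1.00 ± 0.68 and 0.61 without repeat 3, AT3G26910, of a hydroxyproline-rich glycoprotein family, with 0.71 ± 0.28, and TBL39, of the TRICHOME BIREFRINGENCE-LIKE family linked to acetylation of wall polysaccharides, with 0.59 ± 0.14.

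The proteases and their inhibitors gave 3 members. AT3G49340, which encodes a papain-like cysteine protease, read 8.23, 6.51 and 7.72 in controls and 9.45, 7.82 and 9.60 after saliva, with a difference of at least 1.22 in each repeat. Saliva 2 lay below control 1, so the groups overlapped although each repeat showed the higher value after saliva. The potato type I inhibitor AT2G38870, whose family blocks serine proteases such as those of insect guts, read 9.23, 8.90 and 9.83 against 9.96, 9.85 and 10.87. Its groups were 0.021 apart, and the difference was 0.90 ± 0.16. AT1G72060, which by background knowledge encodes an inhibitor of serine endopeptidases, had 0.64 ± 0.22 with groups 0.25 apart.

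Lipid transfer family members, small cysteine-rich secreted proteins, were AT1G62510 and AT4G12490. AT1G62510 read 6.87, 6.73 and 7.13 against 7.79, 7.60 and 8.32, and its groups did not overlap. AT4G12490, of the hybrid proline-rich branch of the family, had differences of 0.53, 0.58 and 0.95 on control values of 9.43, 8.72 and 9.57. It has near-identical tandem neighbours, so its probe set may also read their transcripts. Saliva 3 was the highest array for both genes.

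Defence and jasmonate genes gave 5 members. JRG21, a 2-oxoglutarate-dependent oxygenase that inactivates jasmonate by hydroxylation, read 5.77, 5.66 and 6.14 in controls and 6.58, 6.22 and 8.49 after saliva. Its difference of 2.35 in repeat 3 stood far above 0.81 and 0.56 in the other repeats, and without repeat 3 its mean was 0.69 in place of 1.24. AT2G43620, of the chitinase family that breaks chitin, had 0.84 ± 0.30 with overlapping groups. AT1G61100, which carries the TIR domain of many resistance proteins, had 0.70 ± 0.15. AT1G78410, a VQ motif protein of the kind that binds WRKY factors, had 0.64 ± 0.099, and AT4G28240, of a wound-responsive family, had 0.46 ± 0.097. None of the 4 measured genes of the jasmonate list was a member. PDF1.2 and PDF1.2b, both defensin genes, differed by 0.20 ± 0.030 and 0.36 ± 0.63, and JMT, which methylates jasmonate, by -0.21 ± 0.38. THI2.1, a thionin gene, differed by 0.38, 0.60 and 1.07 in repeats 1 to 3 but lay below the floor, at a control mean of 2.87. The list for salicylic acid response, with 2 genes measured and a median difference of 0.22, also held 0 members. The same was true of pattern-triggered immunity, with 5 measured and 0.24, and of touch, wounding and calcium, with 5 measured and 0.014.

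Carbon and nitrogen metabolism gave 5 members with mean differences from 0.56 to 1.46. APL3, a large subunit of ADP-glucose pyrophosphorylase, the enzyme that commits glucose to starch, read 7.36, 6.73 and 7.09 against 7.93, 7.49 and 7.73. AT4G27450 and AT3G15450 belong to the aluminium-induced protein family, whose transcripts are known to accumulate in sugar-starved or darkened leaves. AT4G27450 read 8.50, 7.92 and 8.35 against 9.17, 9.74 and 9.85, and AT3G15450 had 0.56 ± 0.16 on a control mean of 11.50. Among 14 genes listed for sugar starvation and darkness 5 were measured, of which these are 2. The other 3 were not members: AILP1 with 0.23 ± 0.14, AT1G54740 with 0.53 ± 0.58 and ATL8 with 0.25 ± 0.38.

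AT5G52390, of the PAR1 family named for a tobacco gene that responds to photoassimilates, read 5.96, 5.03 and 5.78 against 6.999, 6.31 and 7.85, a difference of 1.46 ± 0.54. AAH, an allantoate amidohydrolase that releases nitrogen from purine breakdown products, read 6.21, 6.33 and 6.12 against 6.75, 6.90 and 6.83. All saliva arrays exceeded all control arrays in both genes, by 0.34 in AT5G52390 and 0.43 in AAH.

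Water stress and detoxification genes gave 5 members with differences from 0.45 to 0.91. The dehydrin COR47, which protects cells during cold and water loss, read 11.93, 12.18 and 12.004 against 12.47, 12.83 and 12.68. Its differences of 0.54, 0.65 and 0.67 spanned only 0.13. The other measured genes of the abscisic acid and water stress list did not share this: COR15A had 0.48, -0.24 and 0.43 in repeats 1 to 3 and LTI30 had 0.63, -0.064 and -0.042. SIS, a serine-rich gene induced by salt, had 0.91 ± 0.42, with groups that overlapped by 0.019. ALDH7B4, a turgor-responsive aldehyde dehydrogenase, had 0.63 ± 0.31, UGT87A2, a glycosyltransferase, 0.53 ± 0.091, and AT5G05750, with a DnaJ chaperone domain, 0.45 ± 0.038.

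Regulators gave 4 members. AT4G28140, an AP2/ERF transcription factor, read 4.97, 6.09 and 5.57 in controls and 6.32, 7.21 and 5.97 after saliva, and was unlike most members in that repeat 3 gave its smallest difference, 0.40. AT5G47050, a RING-type protein, had 0.86 ± 0.49, AT4G01330, a protein kinase, 0.51 ± 0.14, and AT5G43190, with F-box and kelch repeats, 0.49 ± 0.029. The last 3 kept the groups apart, by 0.21, 0.41 and 0.35.

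Another 8 members came from families with no shared theme. AT1G80130, of the tetratricopeptide repeat superfamily, read 6.61, 5.95 and 5.87 against 7.66, 7.57 and 7.82, and its gap of 0.96 between groups was the widest among the 46 annotated members. AT5G22460, an alpha/beta hydrolase, read 6.39, 6.35 and 6.36 against 7.28, 7.37 and 7.19, with control arrays that lay within 0.037 of each other. AT4G29950, with a domain that activates the GTPase of Rab proteins, had 0.52, 0.53 and 0.51 in the 3 repeats, the least varied differences among the 46. The other 5 were AT1G68110, a clathrin adaptor of the ENTH/ANTH type, with 0.99 ± 0.39, AT4G01870, a TolB-related protein, with 0.80 ± 0.18, AT1G43910, an AAA-type ATPase, with 0.76 ± 0.23, AT1G11630, a pentatricopeptide repeat protein, with 0.67 ± 0.18, and the tetratricopeptide repeat gene AT2G47440 with 0.67 ± 0.33.

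For 6 annotated members no role is given here. They were AT4G28085 with 0.98 ± 0.38, AT1G69360 with 0.77 ± 0.21, AT2G30930 with 0.73 ± 0.20, AT1G05575 with 0.64 ± 0.14, AT5G16520 with 0.63 ± 0.063 and AT1G73440 with 0.55 ± 0.053.

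**Figure D2:**
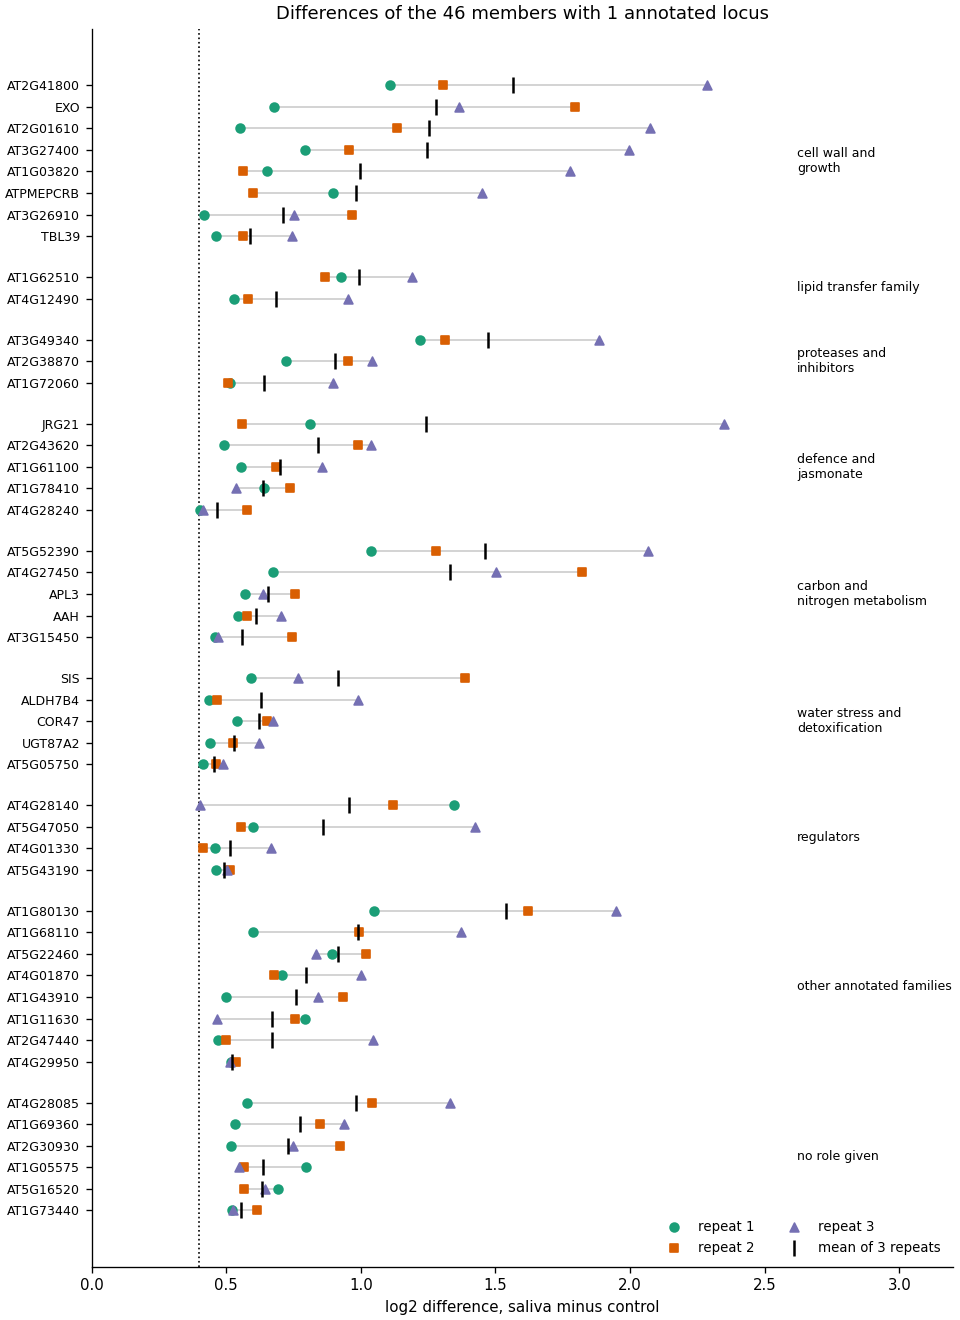
For each of the 46 members with 1 annotated locus, markers give the log2 difference, saliva minus control, in repeats 1, 2 and 3 and a bar gives their mean, grouped by role. The dotted line is the rule's threshold of 0.4, and the widest spreads, such as JRG21 from 0.56 to 2.35, have repeat 3 at the upper end.

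The 49 members without a single locus had medians of level and of difference near those of the annotated ones. Their SD over the repeats was larger, with a median of 0.32 against 0.22 for the 46. Their control means had a median of 7.17, against 6.99 for the 46, and their mean differences a median of 0.83, against 0.74. The share of probe sets past the floor that were members was 0.901% without a single locus and 0.751% with 1. The largest mean difference of all 95, 1.78, belonged to an unnamed probe set that read 8.91, 8.91 and 8.52 in controls and 10.28, 10.42 and 10.99 after saliva. Another unnamed probe set had differences of 1.26, 1.40 and 2.67. Of the 26 members with a mean difference of at least 1, 17 were without a single locus, so most of them cannot be described by function here.

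The annotated members were spread over the 5 nuclear chromosomes. Chromosome 4 held 12, or 1.35% of its annotated probe sets past the floor, chromosome 1 held 14 and 0.88%, chromosome 2 held 8 and 0.898%, chromosome 3 held 5 and 0.405%, and chromosome 5 held 7 and 0.484%. Among the 46 annotated members, those within 20 genes of each other were found in 1 place, on chromosome 4. There AT4G28085 and AT4G28140 have 5 protein-coding genes between them and AT4G28140 and AT4G28240 have 9, by the order of genes in the RefSeq table. The 49 members without a single locus had no position here, so neighbours among them could not be seen. Among probe sets with 1 annotated locus, no member locus had another with which to compare it. Probe sets with several genes or none could not be searched for this.

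The thresholds fall inside a continuum. AT4G28140 and AT4G28240 entered with smallest differences of 0.402, and AT4G01330 with 0.412. Just outside were AT1G63750, whose smallest difference fell just short of 0.4, AT3G13062 with 0.394 and AT1G27290 with 0.389. At the floor, TBL39, AT1G68110 and AT3G26910 entered with control means of 5.02, 5.13 and 5.19, while AT2G40435, AT5G24870 and AT1G05340 stayed out with 4.98, 4.97 and 4.80.

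The mirror image of the rule, a difference of at most -0.4 in each repeat above the same floor, gave 67 probe sets, 0.579% of those past it. With the floor set on the mean of all 6 arrays, which treats the groups alike, the counts were 112 higher and 64 lower. The control floor thus held back 17 probe sets on the higher side. Turning the sign of 1 repeat at a time gave 6 mixed patterns with 75 probe sets in all, between 2 and 29 each, against 162 with the same sign in all repeats. The most frequent mixed pattern was higher in repeat 1 and lower in repeats 2 and 3, with 29 probe sets, followed by its opposite with 17. Repeat 1 was the odd one out in both, and the patterns in which repeat 2 differed from the others held 9 and 2. For members with 1 locus the count was 46, against 36 in the mirror image and 16 in the most frequent mixed pattern.

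**Figure D3:**
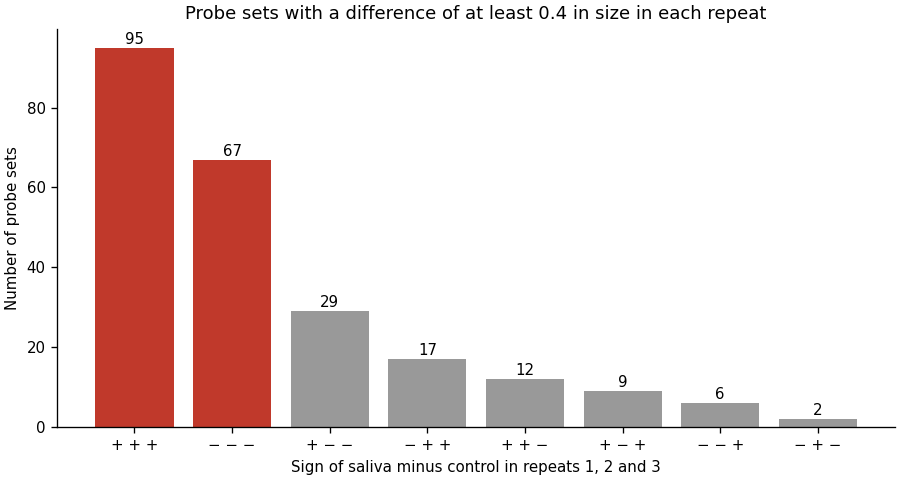
Bars count the probe sets past the control floor whose difference was at least 0.4 in size in each repeat, by the sign of saliva minus control in repeats 1, 2 and 3. The pattern higher in all repeats held 95, lower in all 67, and the mixed patterns at most 29.

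Members were more frequent among dim probe sets. They made up 1.73% of the 1442 probe sets with a control mean from 5 to 6, 0.773% of those from 6 to 8, 0.757% from 8 to 10 and 0.369% from 10 upward. The mirror image did not share the peak in the dimmest class, where it held 0.555%, against 0.730% from 6 to 8. These classes rest on the control arrays, which also enter the differences. They thus do not treat the higher and the lower side alike, and no more is read from this contrast. The spread of the repeat differences also ran from 0.42 in the dimmest class to 0.26 in the brightest, and the part of this spread in the member counts was not tested.

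A repeat that was left out of the choice gives readings that the choice did not use. When the rule was applied to repeats 2 and 3, with their own control arrays for the floor, it took 347 probe sets, and in repeat 1 70.6% of them were above 0 and 27.4% reached 0.4. Over all probe sets past that floor the shares were 51.5% and 7.62%. Chosen on repeats 1 and 3, 177 probe sets were above 0 in repeat 2 in 81.9% of cases and reached 0.4 in 54.2%, against 55.6% and 8.40% over all. Chosen on repeats 1 and 2, 200 were above 0 in repeat 3 in 79.0% and reached 0.4 in 47.0%, against 45.3% and 8.48%. The median difference in the unused repeat was 0.16 in repeat 1, 0.49 in repeat 2 and 0.38 in repeat 3. Repeat 1 therefore carried over least, at the same time as it was the repeat with the narrowest spread of differences past the floor, 0.27, against 0.31 and 0.39 in repeats 2 and 3. Of probe sets chosen as lower on the other repeats, 62.9%, 84.2% and 82.4% were below 0 in repeats 1, 2 and 3, against 48.5%, 44.4% and 54.7% over all, and 18.4%, 50.4% and 49.3% reached -0.4, against 4.92%, 6.48% and 12.2%. Those that reached 0.4 numbered 95, 96 and 94 in repeats 1, 2 and 3, and those that reached -0.4 numbered 67 in each. These are nearly the 95 members and the 67 mirror-image probe sets counted again. The shares that reached the threshold are therefore no separate support for the members. The shares above 0 and the medians of the chosen sets include these same probe sets, so they are no separate support either. Probe sets are not independent, and no test is attached to these shares.

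**Figure D4:**
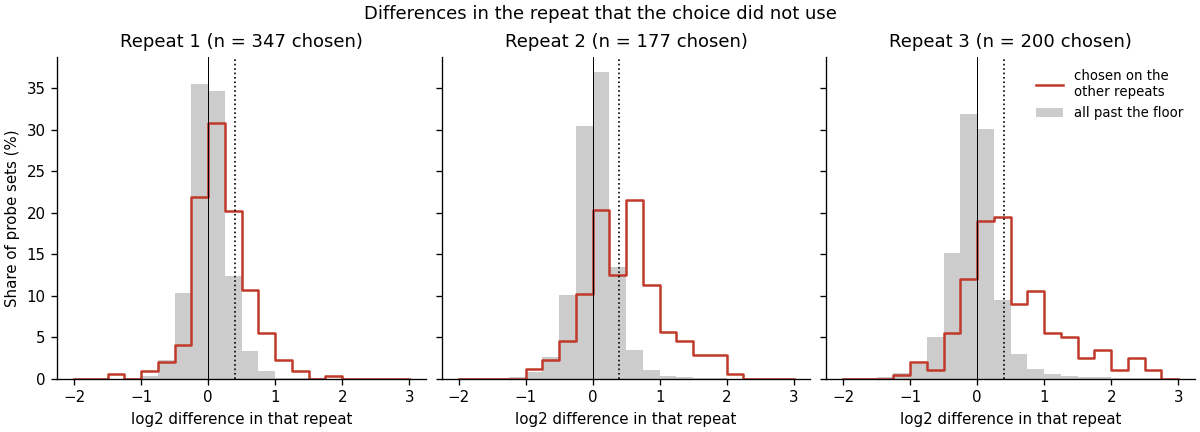
Each panel shows the log2 differences, saliva minus control, in the repeat that the choice did not use, as shares of probe sets in steps of 0.25, for all probe sets past the floor (grey bars) and for those chosen on the other repeats (red line). The chosen sets, which include most of the members, have medians of 0.16, 0.49 and 0.38 and are no separate support for them. Values beyond the axis are counted in the end steps.

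The repeats did not contribute equally. File names in the labels set repeat 1 apart from repeats 2 and 3, without saying what the difference was, and its part in the values was not tested. Member medians were 0.57, 0.75 and 0.95 in repeats 1, 2 and 3. Repeat 1 gave the smallest of the 3 differences in 69 members and repeat 3 the largest in 59. In 12 members the largest difference was at least 3 times the smallest, with repeat 3 on top in 9 of them, JRG21, AT2G01610 and AT1G03820 among the annotated ones. In 13 members the 3 differences lay within 0.15 of each other, which included AT4G29950, AT5G43190, AT5G05750, AT1G73440, AT5G16520 and COR47.

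The levels of the members also differed between repeats within a group. The rule did not ask for this directly, but it used these same values, so the counts here are a description only. The range over the 3 control arrays had a median of 0.46 in the 95 members and 0.23 over all probe sets past the floor, and it reached 1 in 17 members, 17.9%, against 1.21% of all. Control 2 was the lowest control array in 45 members and control 3 in 42, while control 1 was lowest in 8, or 8.42%, against 28.3% of all probe sets past the floor. Saliva 3 was the highest saliva array in 53 members, 55.8%, against 26.2% of all. Relative to the mean of their own group, members had a median of 0.13 on control 1 and 0.17 on saliva 3. These values go with the small member differences in repeat 1 and the large ones in repeat 3, and are not a separate result.

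Control and saliva levels of a member tended to move together from repeat to repeat. The lowest control array and the lowest saliva array came from the same repeat in 58 of 95 members, 61.1%, against 34.3% of all probe sets past the floor. Across the 95 members, the deviation of the control array from its group mean correlated with that of the saliva array at r = 0.53, 0.72 and 0.66 in repeats 1, 2 and 3, where the same correlations over the 11562 probe sets were -0.18, 0.14 and 0.043. These are correlations across probe sets that share the same arrays, and the rule itself favours them, since a saliva value had to stay above its own control in every repeat. In the cell wall genes control 2 was the lowest control array in 7 of 8 and saliva 2 the lowest saliva array in 6 of 8, with medians of -0.40 on control 2 and -0.76 on saliva 2 relative to the group means. The 3 proteases and inhibitors had their lowest saliva array in repeat 2 as well. In the water stress and detoxification group control 3 was lowest in 4 of 5 and control 2 in 0. Neither pattern was particular to these groups. Control 2 and saliva 2 were each lowest in 2 of 2 lipid transfer members and in 3 of 5 defence members. Control 3 was lowest in 6 of 8 members of other families, 3 of 4 regulators and 4 of 6 without a role. Over all probe sets past the floor, control 2 was lowest in 34.7%, control 3 in 37.0% and saliva 2 in 27.1%.

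Groups could therefore overlap while every repeat had the higher value after saliva. The lowest saliva array exceeded the highest control array in 74 of 95 members and in 8.58% of all probe sets past the floor. Of the 46 annotated members 32 were without overlap, 2 of 8 among the wall genes and 5 of 5 among the carbon and nitrogen genes. Within repeats, 95 of 95 were higher after saliva, as the rule demands.

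**Figure D5:**
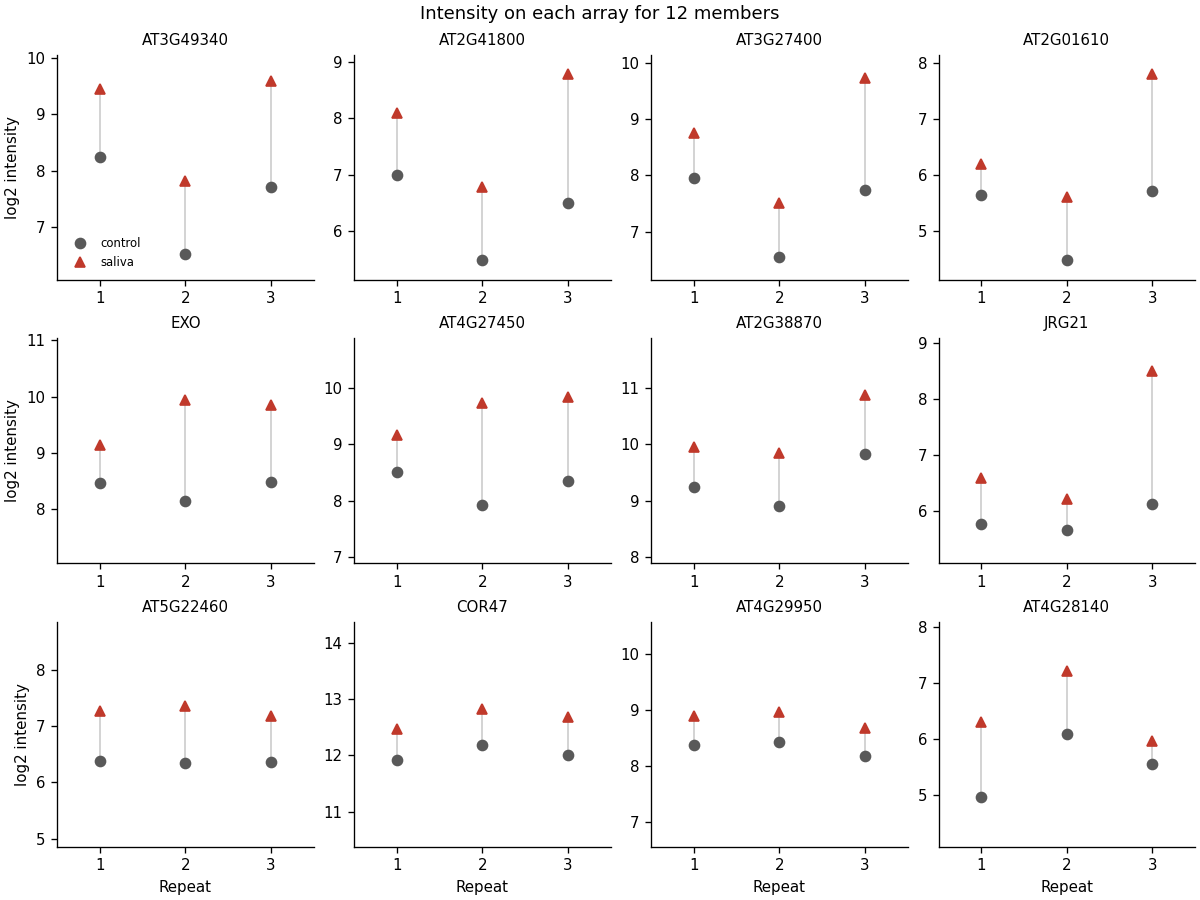
Log2 intensity on each control array (grey circles) and saliva array (red triangles) by repeat for 12 members, each panel spanning 4 log2 units with its own position. AT3G49340, AT2G41800, AT3G27400 and AT2G01610 are low in repeat 2 in both groups, and EXO and AT4G27450 keep the groups apart. AT5G22460 has nearly level control arrays, and AT4G29950 has nearly equal differences in the repeats.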

How the data were processed

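RNA from 6 leaf pools was read on Affymetrix ATH1 arrays. The intensity values deposited by the authors are normalized and linear. The submitters' processing notes name GCRMA, GCOS and limma, and their roles, order and versions are not given in the sources used here. Per the file headers, the authors' table also holds a fold change (a ratio) and false discovery rates, that is p-values adjusted for multiple tests, from a paired and an unpaired comparison.

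Log2 was taken without a pseudocount, and 59 control probe sets were removed. Genes come from the platform annotation, updated through RefSeq (assembly TAIR10.1), where 8298 of 8330 probe sets with 1 gene were found. Another 334 probe sets had several genes and 6513 none. Limma 3.58.1 (lmFit, eBayes) in R 4.3.3 was fitted with the repeat as a block, from the shared pots in the labels' protocols, with Benjamini-Hochberg adjustment over 15177 probe sets, and was tested on simulated data. Deviations from the group means correlated at -0.12, 0.15 and 0.10 within pairs 1, 2 and 3. The labels call the repeats independent biological replicates, and the number of arrays limits the precision. Values after ± are SDs over 3 repeats.

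The members, roles and gene lists were chosen with earlier results of these data known. Named genes are all members with 1 locus, list genes beside them, and probe sets nearest to the thresholds. A planned family assignment by keyword and a planned promoter search could not be run, because the tables hold no descriptions or sequences.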

Additional observations from a re-analysis of the deposited data

How the results depend on the processing

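The member count of 95 became 97 under quantile normalization, 92 under median centring, 120 and 70 with floors of 4 and 6, and 112 with the floor on all arrays. Quantile normalization kept 84 of the 95 and median centring 83. It was 175 at a difference of 0.3 and 57 at 0.5, looser and stricter by construction, and between 177 and 347 with a repeat left out (347 without repeat 1, 177 without repeat 2, 200 without repeat 3), where the rule asked for 2 repeats instead of 3. The mirror image of 67 became 157 at 0.3 and 26 at 0.5, and 133 to 364 with a repeat left out (364 without repeat 1, 133 without repeat 2, 136 without repeat 3), and stood at 77 under quantile normalization and 76 under median centring. The share above 0 in repeat 3 was 86.2% when chosen at 0.5, from 79.0%; the cause was not tested.

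The limma counts were 0 higher and 0 lower with the replicate block, with no replicate block (lowest adjusted p 0.078), with an estimated block correlation, the floor, an intensity trend, array weights, either scaling and each repeat left out. The lowest adjusted p ranged from 0.078 to 0.789 over these fits. Mean differences of the 46 annotated members stayed above 0 in each of these settings run for them. The rule asked for at least 0.4 in every repeat, so with a repeat left out or no block this could not fail. It is therefore no separate support for the members. Leaving out repeat 3 moved JRG21 to 0.69 and AT1G03820 from 1.00 to 0.61, and in the other settings run for them none of these 46 moved by over 1.5 times; the members without a single locus were not run this way.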

Other observations

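Below the floor of 5, another 51 probe sets were at least 0.4 higher after saliva in each repeat, and 20 of them had 1 locus. The following were chosen after their values were seen. AT1G54020, of the GDSL lipase family, differed by 1.37, 1.92 and 4.67 in repeats 1, 2 and 3, from a control mean of 4.43. ChiC, a chitinase gene, differed by 0.47, 1.36 and 2.68 from 4.26, and BETA-VPE, a vacuolar processing protease, by 0.87, 0.45 and 1.79 from 3.99. AT2G17740 differed by 0.70, 0.76 and 0.79 from 4.36, an even response near the floor.

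The pattern higher in repeat 1 and lower in repeats 2 and 3 held 16 probe sets with 1 locus, also named here after their values were seen. CSLA03, of the cellulose synthase-like family that makes mannans, differed by 0.50, -0.60 and -0.62. GH9B8, of the glycosyl hydrolase family of endoglucanases, differed by 0.65, -0.58 and -0.42, and AT1G67750, of the pectate lyase family, by 0.42, -0.996 and -1.08. Wall-related genes thus occurred in this pattern as well as among the members, and no difference between the patterns was tested.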
